A study of Mus musculus with 9 samples.

Results

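Replication-dependent histone genes encode the bulk of the histones that package newly copied DNA. They were taken here as the rows of the count table of P4 (postnatal day 4) mouse neural retina whose symbol starts with Hist1h, Hist2h, Hist3h or Hist4h and whose mean over all 9 samples was at least 0.5 CPM (counts per 1 M counts of the library, taken as the column total). Of 53280 gene rows, 70 carried such a symbol and 38 passed the level: 3 of the H1 class, 16 of H2A, 7 of H2B, 6 of H3 and 6 of H4. By cluster, 29 were Hist1 genes, 6 Hist2, 2 Hist3 and 1 Hist4. The mean CPM chose them, so their levels are a description. Just inside the level stood Hist1h4d (an H4 gene, 0.59 CPM) and Hist1h2bk (an H2B gene, 0.53 CPM), and just outside it Hist3h2bb-ps (an H2B pseudogene, 0.48 CPM) and Hist1h2br (an H2B gene, 0.46 CPM). Of the 32 rows outside, 22 had enough counts for the test and edgeR called 0 of them, with 2 at an unadjusted p under 0.05, both lower in knockout. DESeq2 gave an adjusted p to none of the 32.

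The samples were 9 pools of retinas: 5 from Opn4KO pups, which lack Opn4, the gene of the photopigment melanopsin, and 4 from Opn4WT pups. Both genotypes came from crosses between Opn4 heterozygotes, were littermates housed at about 300 lux, and were taken at P4 between ZT6 and ZT7 (zeitgeber hours 6 and 7). A pool held 4 retinas of 2 animals of the same genotype, so its value is an average over animals. The labels give no sex, strain or litters, and do not say which part of Opn4 is deleted. The series asks how melanopsin-expressing ganglion cells control the number of rods, and the comparison here was knockout against wildtype over the whole neural retina.

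A cell makes its core histones H2A, H2B, H3 and H4, and the linker histone H1, mainly in S phase, when DNA is copied. The mRNAs of the replication-dependent genes end in a short stem-loop instead of a poly-A tail. The stem-loop binding protein (SLBP) holds that end through processing, export and translation, and the mRNAs are destroyed once DNA synthesis stops. The genes stand in clusters, the largest of them Hist1 on mouse chromosome 13, where many copies encode nearly the same protein and an H2A and an H2B gene often start back to back. The P4 retina still contains dividing progenitors. The labels name polyA RNA as the molecule sequenced, so a library of this kind catches histone mRNAs through whatever tail or carry-over they have, and the values below are levels in such libraries.

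The 3′ ends show what the transcripts share. The stem-loop was searched as GG, any 2 bases, CTTT, any 2 bases, AG, any 2 bases and CC, with complementary arms of 6 bases, on the sense strand within 150 bases after the stop codon of GENCODE M21 transcripts (GRCm38). It was found in 28 of the 38 genes, and in 2 of 50037 coding transcripts of other genes (0.004%). The sites are shown for the most abundant H2A gene and its nearest copy, for the H2A and H2B genes of the Hist3 cluster, and for an H1, an H3 and an H4 gene, 5′ to 3′ in DNA letters with the stem-loop in capitals.
Hist1h2ap: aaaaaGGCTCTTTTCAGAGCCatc
Hist1h2ao: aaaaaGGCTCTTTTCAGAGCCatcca
Hist3h2a: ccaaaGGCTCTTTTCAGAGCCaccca
Hist3h2ba: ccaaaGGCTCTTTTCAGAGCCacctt
Hist1h1c: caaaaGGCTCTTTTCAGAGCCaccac
Hist2h3c2: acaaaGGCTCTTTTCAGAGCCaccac
Hist1h4i: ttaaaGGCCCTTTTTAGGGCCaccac
The stem of the H2A, H2B, H1 and H3 sites shown is the same 16 bases, and Hist1h4i carries another pair of arms and another loop. What followed the stem differed more between genes than the stem: the annotated transcript of Hist1h2ap stops 3 bases after it, while that of Hist3h2a runs on for 1643 bases. A match is a description of the annotated sequence, and its absence says only that these letters are not in that window, which in 7 genes ends within 2 bases of the stop codon.

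The coding sequences show how alike the H2A copies are. Coding bases 1 to 60 are given for Hist1h2ap, with capitals in the other genes where a base differs from Hist1h2ap.
Hist1h2ap: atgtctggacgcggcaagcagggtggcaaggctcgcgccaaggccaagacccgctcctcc
Hist1h2ao: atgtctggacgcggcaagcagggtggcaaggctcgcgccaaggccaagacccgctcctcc
Hist1h2ag: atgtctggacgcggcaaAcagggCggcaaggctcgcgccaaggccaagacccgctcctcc
Hist1h2ab: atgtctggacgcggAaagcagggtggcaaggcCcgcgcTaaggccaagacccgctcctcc
Hist3h2a: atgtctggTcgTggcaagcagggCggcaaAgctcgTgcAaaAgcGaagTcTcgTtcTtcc
Over all 393 coding bases, Hist1h2ap and Hist1h2ao were identical, Hist1h2ag differed from them at 3 bases, Hist1h2ab at 8 and Hist3h2a at 45. Of the 31-base words of the Hist1h2ap transcript, 6.64% occurred in no other annotated gene and 93.4% were shared with Hist1h2ao. For Hist3h2a 67.9% occurred in no other gene. Among the 13 H2A genes of Hist1 this share ran from 5.69 to 83.1%, with a median of 11.02%, and it was under 50% in 11, the other two being Hist1h2ae (52.1%) and Hist1h2ac (83.1%). The counts of those 11 are uncertain as values of a single copy.

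The count table held 65.5 to 86.1 M counts per pool, of which the 38 genes took 0.0583 to 0.0690% in knockout and 0.0867 to 0.102% in wildtype. Opn4, the targeted gene, stood at 1.08 to 1.82 CPM in knockout and 11.4 to 12.1 CPM in wildtype, so the pools followed their labels. Photoreceptor genes were present (Crx, a photoreceptor transcription factor, at a mean of 799.9 CPM), and Hist1h1t, Hist1h2aa and Hist1h2ba, the testis-type histone genes, were near 0, with summed levels of 0 to 0.0263 CPM in knockout and 0.0136 to 0.0606 CPM in wildtype. Knockout pools 1 and 2 stood apart by their lens transcripts: the 5 crystallin and lens fibre genes listed summed to 10.3 and 8.68 CPM there and to between 1.99 and 3.43 CPM in the other 7 pools. In bulk samples such as these, fewer cells of a type and less RNA per cell cannot be told apart.

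Histone transcripts were lower in knockout, and among the genes that passed the test nearly all were H2A genes of the Hist1 cluster. By edgeR's quasi-likelihood test with Benjamini-Hochberg adjustment over all 21150 genes tested, 12 of the 38 genes were lower in knockout, where 2.25% of all genes tested were, and 0 were higher, where 1.34% of all genes were (3.59% changed in either direction). At an unadjusted p under 0.05, edgeR gave 17 members lower and 0 higher. DESeq2 called 13 lower, where 5% of all genes with a DESeq2 adjusted p were, and 0 higher, and gave 9 of the 38 no adjusted p. The log2 fold change (knockout minus wildtype) was negative for 35 of the 38, with a median of −0.51 against 0.00 over all genes tested. In 14 of the 38, every knockout pool was below every wildtype pool, against 4.8% of all genes tested. The summed level of all 38 was 583 to 690.2 CPM in knockout and 867 to 1017 CPM in wildtype. Of the 12 genes called, 11 were H2A genes and 1 was an H4 gene, Hist1h4i, and all 12 were in Hist1. All 16 Hist1 genes outside H2A also had log2 fold changes below 0, with a median of −0.46. Among these 16, edgeR called 1 lower and found 5 lower at an unadjusted p under 0.05. Counts at an unadjusted p, here and elsewhere, are given without the share of all genes at that cut and so have no background. DESeq2 called 1 of the 16 lower and gave 7 no adjusted p. No test of a class against another was made.

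Summed over its members, H2A stood at 413 ± 40.7 CPM in knockout (SD, n = 5) and 656 ± 47.5 CPM in wildtype (SD, n = 4). H4 stood at 11.4 ± 0.997 against 14.7 ± 2.21 CPM. Most of the H4 sum was Hist1h4i (7.73 ± 0.901 against 10.9 ± 1.65 CPM), and edgeR called none of the other H4 genes. In the H2A and H4 sums every knockout pool was below every wildtype pool. The pools of both genotypes overlapped in H1 (103 ± 5.94 against 119 ± 29.8 CPM), H2B (100.2 ± 3.08 against 108 ± 9.15 CPM) and H3 (11.7 ± 5.27 against 15.3 ± 4.79 CPM). As log2 ratios of the means after scaling of the libraries, the differences were −0.66 for H2A, −0.36 for H4, −0.39 for H3, −0.19 for H1 and −0.10 for H2B. The H3 value rests on Hist2h3c1, whose count cannot be read: without it, a sum made after its values were seen, H3 stood at 8.86 ± 1.35 against 9.55 ± 1.07 CPM and the log2 ratio was −0.10. Most of that smaller sum was Hist2h3c2 (means of 5.88 and 5.12 CPM), which shares 64.2% of its 31-base words with Hist2h3c1, so its count is uncertain too. Summed by themselves, the 4 Hist1 H3 genes had a log2 fold change of −0.56 ± 0.24 (edgeR adjusted p = 0.25). With single pools left out the ratio of the full H3 sum ran from −0.67 (without knockout pool 5) to −0.21 (without wildtype pool 2). H2A took 61.3 to 67.5% of the histone counts of a knockout pool and 69.6 to 75.7% of those of a wildtype pool. These shares add up to a fixed total: that of H2B was 14.7 to 17.1% in knockout and 10.96 to 12.6% in wildtype, although the H2B sum itself was not higher in knockout, and that of H1 was 14.5 to 18.4% and 9.79 to 15.3%.

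**Figure D1:**
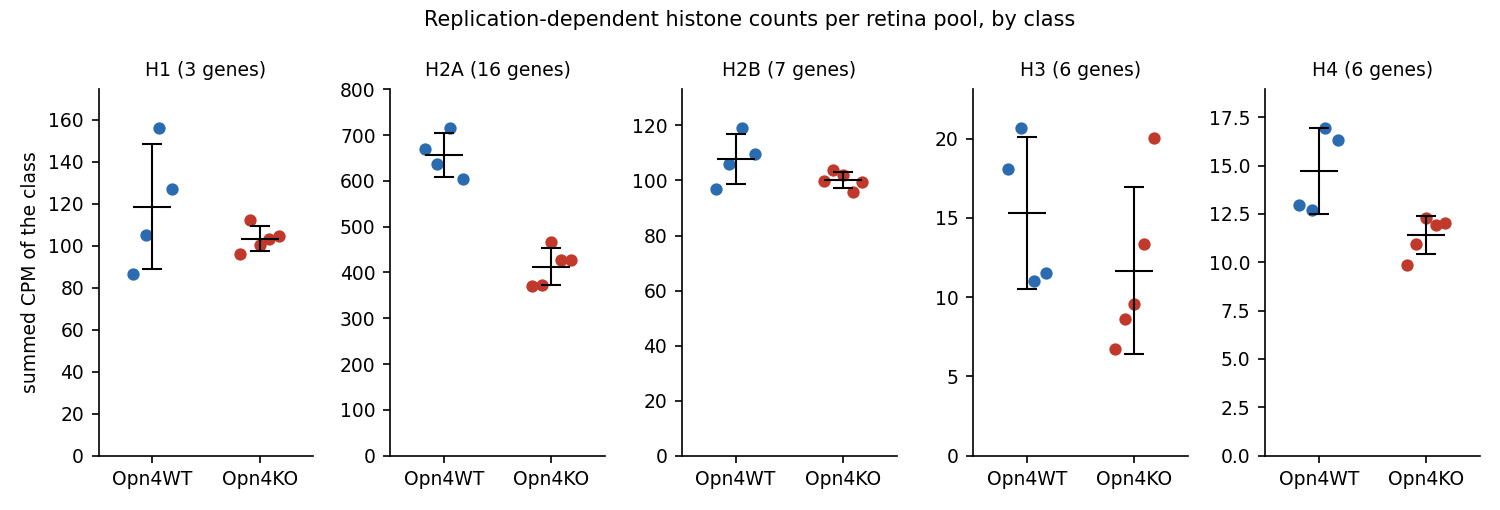
Summed CPM of each histone class (vertical axes, each from 0) in 4 Opn4WT pools (blue) and 5 Opn4KO pools (red), with the mean and SD in black. The genotypes are apart in H2A (603 to 715 CPM in wildtype, 370.2 to 466 CPM in knockout) and in H4, most of which is Hist1h4i. They overlap in H1, H2B and H3.

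**Figure D2:**
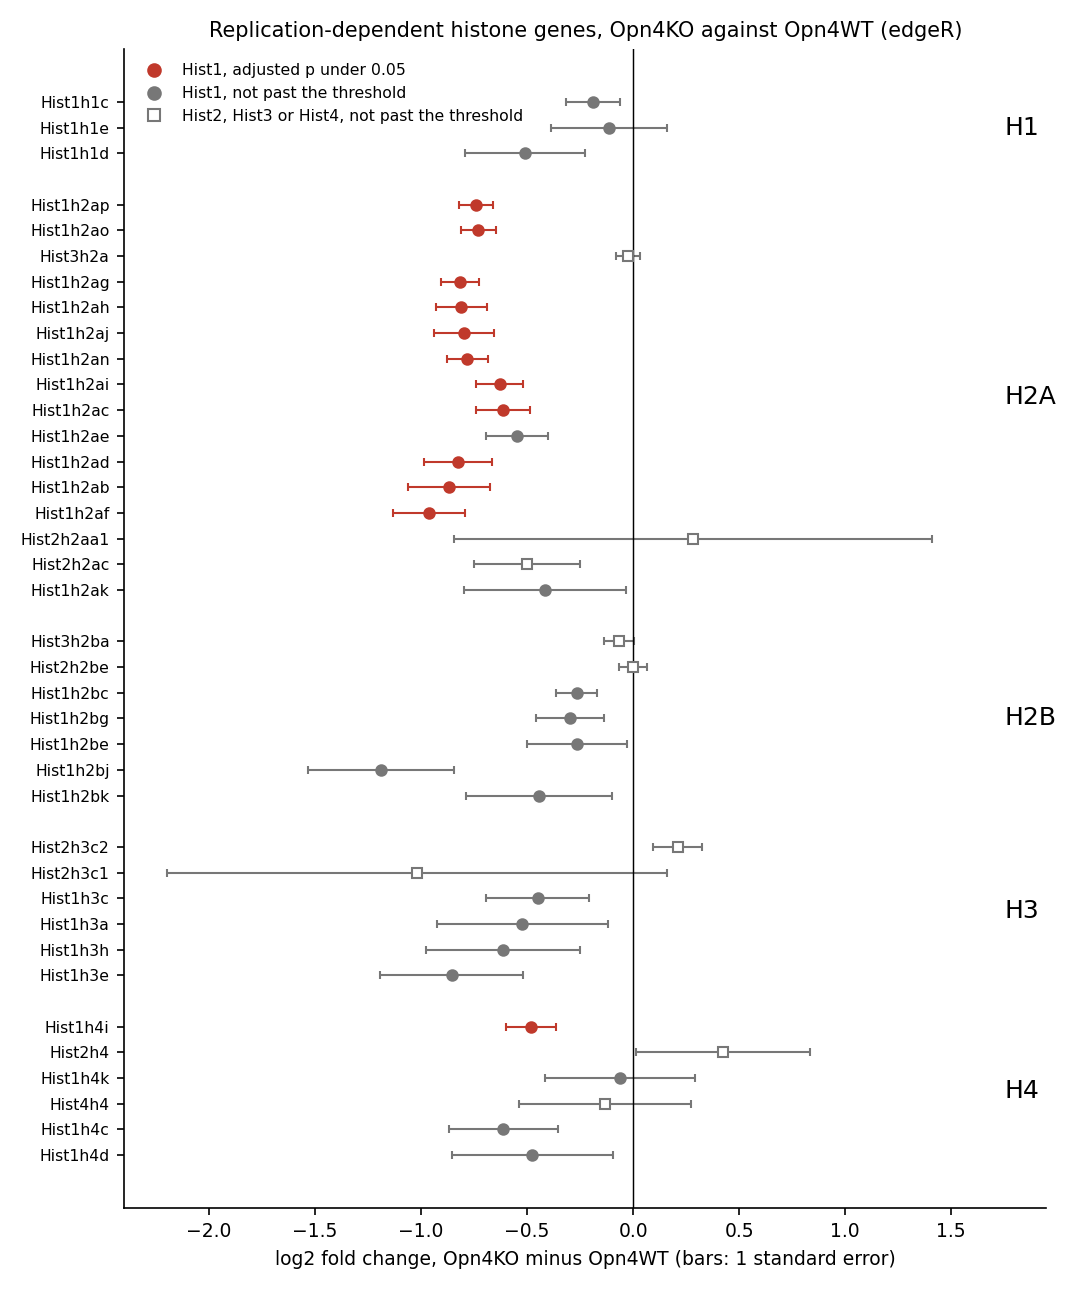
Log2 fold change of each of the 38 genes (knockout minus wildtype, bars are 1 standard error), grouped by class and ordered by mean CPM within a class. The 12 genes past the threshold (red) are 11 H2A genes and Hist1h4i, all of the Hist1 cluster, and the open squares of Hist2, Hist3 and Hist4 lie on both sides of 0.

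H2A pairs with H2B in the nucleosome core. Hist1h2ap (chr13:21833026-21833507, minus strand, GRCm38) had 128, 133, 168, 154 and 156 CPM in knockout pools 1 to 5 and 259, 244, 268 and 223 CPM in wildtype pools 1 to 4. Every knockout pool was below every wildtype pool, and pools 1 and 2 were the lowest of the knockouts. Its log2 fold change was −0.74 ± 0.08 (standard error, the fold change over the square root of edgeR's F), with an adjusted p of 0.000261 by edgeR, so that knockout stood at 59.6% of wildtype. Hist1h2ao (chr13:21810465-21810944, plus strand) had 83.0, 82.8, 109.6, 99.5 and 95.4 CPM in knockout and 162, 153, 171 and 142 CPM in wildtype, and pools 1 and 2 were again the lowest and pool 3 the highest of the knockouts. Its log2 fold change was −0.73 ± 0.08 (edgeR adjusted p = 0.000313).

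Of the H2A genes called, Hist1h2af, Hist1h2ab and Hist1h2ad changed the most, at low counts. Hist1h2af (chr13:23533906-23534304) had 0.857 to 1.16 CPM in knockout and 1.63 to 2.27 CPM in wildtype, a log2 fold change of −0.96 ± 0.17 (edgeR adjusted p = 0.00538). Hist1h2ab had 1.10 to 2.02 CPM in knockout and 2.47 to 3.44 CPM in wildtype, a log2 fold change of −0.87 ± 0.19 (edgeR adjusted p = 0.0243). Hist1h2ad had 1.82 to 2.91 CPM in knockout and 3.70 to 5.08 CPM in wildtype, a log2 fold change of −0.83 ± 0.16 (edgeR adjusted p = 0.0103). In all 3 genes the pools of the genotypes did not overlap. Hist1h2ag, the third of the Hist1 H2A genes by counts, had 31.5 to 43.7 CPM in knockout and 62.1 to 71.7 CPM in wildtype (log2 fold change −0.82 ± 0.09, edgeR adjusted p = 0.000291).

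Of the 13 H2A genes of Hist1, 11 were lower by edgeR and their median log2 fold change was −0.78. The other two were Hist1h2ae, whose pools did not overlap (2.63 to 4.13 CPM against 4.66 to 5.42 CPM, edgeR adjusted p = 0.0621), and Hist1h2ak, whose knockout pool 5 had 1.23 CPM against 0.328 to 0.504 CPM in the other knockout pools (wildtype 0.626 to 0.826 CPM, edgeR adjusted p = 0.66). DESeq2 also called Hist1h2ae lower (adjusted p = 0.00934). Hist1h2aj, annotated as an unprocessed pseudogene without a coding model, was among the 11 at 13.4 to 20.9 CPM in knockout and 24.2 to 37.1 CPM in wildtype. Its transcript shared 93.5% of its 31-base words with Hist1h2ai, so its counts may belong to other copies. The calls of 2 of the 11 depended on single pools: Hist1h2ab had an edgeR adjusted p of 0.0652 when knockout pool 2 was left out, and of 0.0656, 0.0788 and 0.0514 when wildtype pool 1, 3 or 4 was. Hist1h2ac had 0.0541 and 0.0504 when wildtype pool 1 or 3 was left out.

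The proportions of the Hist1 H2A copies varied little between pools for some genes and more for others. The CPM of Hist1h2ao was 0.611 to 0.651 of that of Hist1h2ap over the 9 pools, a coefficient of variation of 2.06%, and that of Hist1h2ag was 0.244 to 0.285 of it, with 4.83%. Over the 12 genes set against Hist1h2ap the coefficient of variation had a median of 10.2% and reached 50.4% in Hist1h2ak, and it was 11.8% in Hist1h2aj and 12.1% in Hist1h2an, whose ratio ran from 0.0879 to 0.123. Hist1h2ap took 41.5 to 42.9% of the Hist1 H2A counts in all pools. In the kallisto TPM table (abundance divided by transcript length and scaled to the sample), the same gene took 97.2 to 98.1% of the Hist1 H2A level. The tables thus divide the same copies differently, and no source used here says how the deposited counts credit shared reads.

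**Figure D3:**
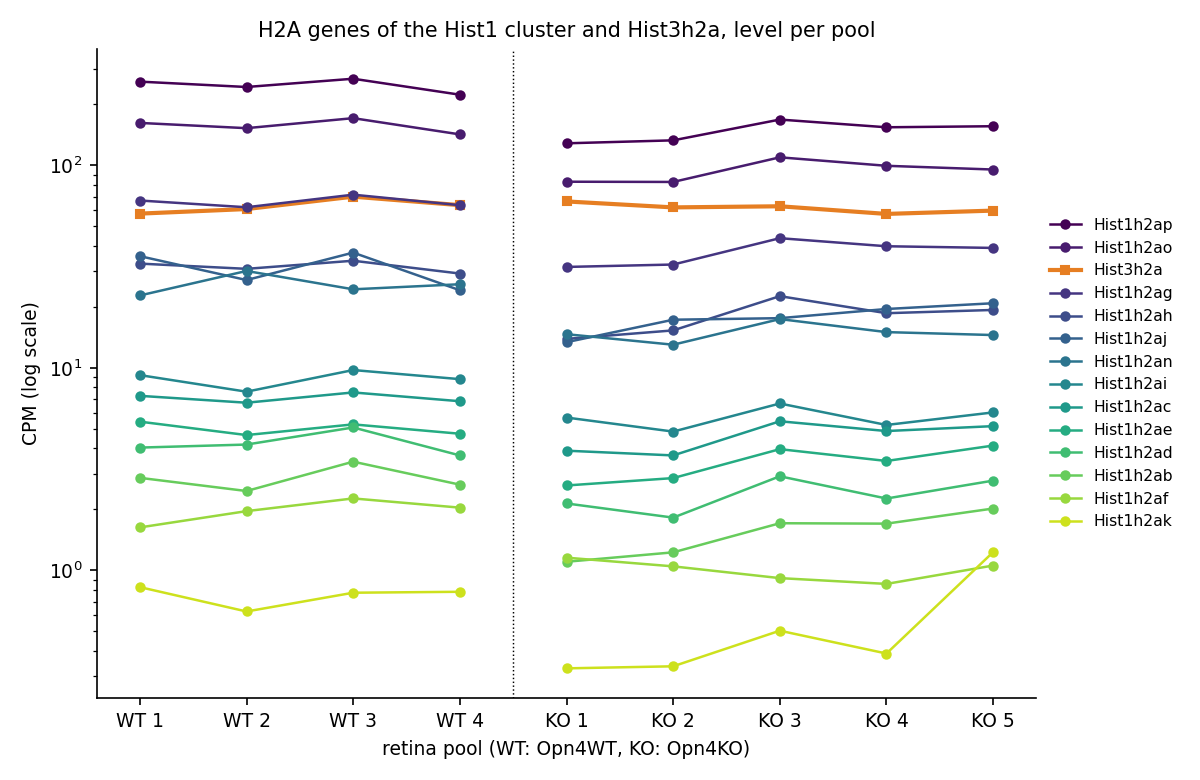
CPM (vertical log axis) of the 13 Hist1 H2A genes and of Hist3h2a (orange squares) in each pool, wildtype left and knockout right of the dotted line. Hist1h2ap lies between 223 and 268 CPM in wildtype and between 128 and 168 CPM in knockout, while Hist3h2a stays between 57.6 and 70.1 CPM.

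Because the copies share reads, member genes whose reference transcripts matched at 95% identity or more over at least 0.5 of the shorter transcript, directly or through another copy, were also summed before the fit. This gave 17 rows, 5 of them of several genes, and the 13 Hist1 H2A genes became a single row. That row had 302, 309.5, 401, 366 and 368 CPM in knockout pools 1 to 5 and 611, 575, 639.9 and 538 CPM in wildtype pools 1 to 4. Its log2 fold change was −0.75 ± 0.08 (edgeR adjusted p = 0.000277), so knockout stood at 59.1% of wildtype. Of the 17 rows, 2 were lower, this one and Hist1h4i, where 2.19% of all rows of that fit were lower. The 11 calls of H2A genes are therefore not 11 separate observations. The row of 5 Hist1 H2B genes stood at 21.3 ± 2.05 against 26.3 ± 3.18 CPM (log2 fold change −0.30 ± 0.09, edgeR adjusted p = 0.119). That of 4 Hist1 H3 genes stood at 2.98 ± 1.09 against 4.44 ± 0.554 CPM (−0.56 ± 0.24, edgeR adjusted p = 0.25).

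In the TPM table, for which kallisto divides a read that fits several transcripts between them, Hist1h2ap was lower as well, with few calls besides. Hist1h2ap stood at 1887, 2024, 2680.0, 2404 and 2404 TPM in knockout pools 1 to 5 and at 3962, 3701, 4286 and 3428 TPM in wildtype pools 1 to 4, with no overlap. By limma on log2(TPM + 0.5), its log2 fold change on that scale was −0.76 ± 0.11 (adjusted p = 0.0373). Of 41 rows of the members in that table, 32 were tested and 1 was lower, the row of Hist1h2ap, where 0.124% of all rows tested were lower. With knockout pool 3 left out 1 member row was lower, and with any other single pool left out 0 were. At an unadjusted p under 0.05, 8 were lower and 1 was higher. With TPM summed per gene, 2 of 32 genes were lower, Hist1h2ap (adjusted p = 0.00661) and Hist1h2af (5.60 ± 1.61 TPM against 12.6 ± 1.43 TPM, log2 fold change −1.13, adjusted p = 0.0105), where 1.54% of all genes were lower. The order of genes by TPM began with Hist1h2ap, then Hist3h2ba (means of 204 TPM in knockout and 214 TPM in wildtype), Hist1h1c (125 and 144 TPM), Hist2h2aa1 (87.4 and 88.6 TPM) and Hist3h2a (55.4 and 57.1 TPM), each of the last 4 with genotypes that overlapped.

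The authors' deposited table of the same contrast, made with sleuth, lists 33 of the 38 genes. Of these, 27 are lower and 6 higher in knockout in the authors' deposited table, and 5 have a p under 0.05, all lower. Only Hist1h2af has a q under 0.05 in the authors' deposited table (q = 0.0354, −1.05 after conversion to log2), where 0.815% of all genes listed are lower at that q. Hist1h2ap has a q of 0.0901 there, and −0.60 after conversion to log2, in the authors' deposited table.

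H2A genes outside Hist1 did not pass the test. Hist3h2a (chr11:58954685-58956830, plus strand) had 66.3, 62.0, 62.8, 57.6 and 59.8 CPM in knockout pools 1 to 5 and 57.8, 60.9, 70.1 and 63.6 CPM in wildtype pools 1 to 4. The genotypes overlapped, with wildtype pool 3 the highest of all, and the log2 fold change was −0.02 ± 0.06 (edgeR adjusted p = 0.897). Hist3h2a shares 32.1% of its 31-base words with Trim17. Hist2h2ac had 0.549 to 0.964 CPM in knockout and 0.749 to 1.26 CPM in wildtype (log2 fold change −0.50 ± 0.25, edgeR adjusted p = 0.347). Of these 3 genes edgeR and DESeq2 called 0, with 0 at an unadjusted p under 0.05.

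Hist2h2aa1, the third of them, has no 31-base word of its own, and its counts differed widely between pools. It stood at 0.0116 CPM or less in knockout pool 5 and wildtype pools 1 and 2 and at 0.535 to 3.60 CPM in the other 6 pools. In the TPM table it stood at 72.3 to 105 TPM in all 9 pools, and Hist2h2aa2, at 0 to 0.504 CPM in the count table and so not a member, stood at 114 to 198 TPM. Its log2 fold change by edgeR was 0.28 ± 1.13 (adjusted p = 0.939).

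Genes start back to back in 14 H2A and H2B pairs, with gaps of 172 to 305 bases between their annotated starts. In 5 pairs both genes were members. In these, the H2A gene was lower in 3 (Hist1h2ah, Hist1h2ag and Hist1h2ac) and the H2B gene in 0, by edgeR, with 2 of these H2B genes, Hist1h2bj and Hist1h2bc, at an unadjusted p under 0.05. DESeq2 called 0 of these H2B genes and gave no adjusted p for 2 of them, Hist1h2bj and Hist1h2bk. Hist1h2ac and Hist1h2bc, for example, had log2 fold changes of −0.61 (adjusted p = 0.0157) and −0.27 (adjusted p = 0.174). Hist2h2ac and Hist2h2be, the Hist2 pair, had −0.50 and 0.00. The H2B partner was the lower in counts in 3 of the 5 pairs, and the difference between partners was not tested.

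Promoters are shown for Hist1h2ap, which was lower, and for Hist3h2a, which did not pass the test, from the RefSeq table (GRCm38.p6), as 250 bases before to 50 after the RefSeq start. The first is chr13:21833426-21833725 on the minus strand and the second chr11:58954435-58954734 on the plus strand. Capitals mark CCAAT and ATGCAAAT on either strand, the letters bound by NF-Y and by octamer factors such as Oct1. TATAAA was searched as well and occurs in neither.
Hist1h2ap: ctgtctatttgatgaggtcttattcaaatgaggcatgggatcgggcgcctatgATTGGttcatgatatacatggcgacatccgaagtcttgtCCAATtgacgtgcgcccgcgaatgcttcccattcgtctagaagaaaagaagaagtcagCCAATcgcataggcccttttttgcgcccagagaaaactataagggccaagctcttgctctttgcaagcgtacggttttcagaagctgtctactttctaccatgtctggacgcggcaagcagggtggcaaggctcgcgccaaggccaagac
Hist3h2a: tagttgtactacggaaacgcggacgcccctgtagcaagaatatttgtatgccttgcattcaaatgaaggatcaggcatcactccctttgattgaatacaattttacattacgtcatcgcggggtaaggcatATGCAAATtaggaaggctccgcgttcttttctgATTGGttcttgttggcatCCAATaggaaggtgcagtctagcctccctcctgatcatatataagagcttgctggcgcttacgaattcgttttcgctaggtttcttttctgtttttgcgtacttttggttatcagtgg
Each promoter holds CCAAT in both orientations, and of the pair only that of Hist3h2a holds ATGCAAAT. Of the 38 genes, 33 matched the RefSeq table. CCAAT was present in 3 of 3 H1, 15 of 15 H2A, 5 of 5 H2B, 5 of 5 H3 and 2 of 5 H4 promoters, against 37.4% of all 32851 promoters of that length. ATGCAAAT was present in 6 of 15 H2A and 2 of 5 H2B promoters and in 0 of the H1, H3 and H4 promoters, against 1.74%. The 6 H2A genes were Hist1h2ab, Hist1h2ac and Hist1h2ah, which were lower, and Hist1h2ae, Hist2h2ac and Hist3h2a, which edgeR did not call. TATAAA was present in 2 of 3 H1, 9 of 15 H2A, 3 of 5 H2B, 1 of 5 H3 and 3 of 5 H4 promoters, against 13.6%. These are matches of letters and say nothing of binding.

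H2B genes did not pass the test, though all 7 log2 fold changes were below 0. Hist3h2ba had 49.7, 48.0, 50.3, 41.7 and 44.6 CPM in knockout pools 1 to 5 and 46.5, 47.7, 55.7 and 47.3 CPM in wildtype pools 1 to 4, a log2 fold change of −0.07 ± 0.07 (edgeR adjusted p = 0.706). Hist2h2be had 29.5 to 33.2 CPM in knockout and 28.6 to 34.9 CPM in wildtype, a log2 fold change of 0.00 ± 0.07 (edgeR adjusted p = 0.997). In both genes the pools of the genotypes overlapped. Hist1h2bc had 13.9 to 17.6 CPM in knockout and 16.2 to 21.6 CPM in wildtype, overlapping in wildtype pool 1 alone (log2 fold change −0.27 ± 0.10, edgeR adjusted p = 0.174). Hist1h2bj, at 0.302 to 0.53 CPM in knockout and 0.448 to 1.45 CPM in wildtype, had the lowest log2 fold change of all members, −1.19 ± 0.35 (edgeR adjusted p = 0.0862). Of the 7, edgeR and DESeq2 called 0, with 2 lower at an unadjusted p under 0.05, and DESeq2 gave no adjusted p to 2.

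H1, the linker histone that binds between nucleosomes, was measured mostly through Hist1h1c. It had 95.1, 111, 98.7, 100.9 and 103 CPM in knockout pools 1 to 5 and 84.9, 103, 154 and 124 CPM in wildtype pools 1 to 4. The wildtype pools spread more widely than the knockout pools, and the log2 fold change was −0.19 ± 0.13 (edgeR adjusted p = 0.51). Without wildtype pool 3 the log2 ratio of the H1 sum went from −0.19 to −0.03. That pool also had the highest sum of the red blood cell genes, 337 CPM, where the remaining 8 pools had 73.6 to 205 CPM, and the part of these cells in the H1 level was not tested. Hist1h1e (−0.11 ± 0.27, edgeR adjusted p = 0.895) and Hist1h1d (−0.51 ± 0.28, edgeR adjusted p = 0.407) were near 1 CPM and overlapped between genotypes. Of the 3, edgeR and DESeq2 called 0, with 0 at an unadjusted p under 0.05.

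H3 genes did not pass the test, and the count of Hist2h3c1 cannot be read. Hist2h3c2 had 4.99 to 6.49 CPM in knockout and 4.60 to 5.67 CPM in wildtype, a log2 fold change of 0.21 ± 0.11 (edgeR adjusted p = 0.394). Hist1h3c had 0.801 to 1.85 CPM in knockout and 1.5 to 1.92 CPM in wildtype, a log2 fold change of −0.45 ± 0.24 (edgeR adjusted p = 0.393). Knockout pools 1 and 2 were the lowest in Hist1h3c. Of the 6 H3 genes edgeR and DESeq2 called 0, with 1 lower at an unadjusted p under 0.05, and DESeq2 gave no adjusted p to 2.

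Hist2h3c1 has no 31-base word of its own, and its counts differed widely between pools of 1 genotype. It had 0.0656, 0.0646, 0.0763, 3.86 and 9.94 CPM in knockout pools 1 to 5 and 9.52, 10.7, 0.158 and 2.70 CPM in wildtype pools 1 to 4, a log2 fold change of −1.02 ± 1.18 (edgeR adjusted p = 0.741). High and low pools occurred in both genotypes. All of its 31-base words also occur in Gm20634, which had 30.7 to 36.4 CPM in knockout pools 1 to 4 and 11.6 CPM in pool 5, and 7.26, 8.91, 37.2 and 28.7 CPM in wildtype pools 1 to 4, so it was high where Hist2h3c1 was low. How shared reads were credited was not tested. Gm20633, which contains all words of Hist2h2aa1, had 17.2 to 19.6 CPM in knockout pool 5 and wildtype pools 1 and 2 and 3.83 to 9.67 CPM elsewhere. The sum of Hist2h3c1, Gm20634 and Gm20633, put together after their values were seen, was 39.0 to 41.9 CPM in knockout and 36.3 to 42.9 CPM in wildtype. With TPM summed over its rows, Hist2h3c1 had 9.90 to 12.9 TPM in knockout and 10.3 to 14.0 TPM in wildtype, a log2 fold change of −0.06 (limma adjusted p = 0.845).

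Of the H4 genes, Hist1h4i was lower. It had 6.18, 7.78, 8.39, 8.32 and 7.99 CPM in knockout pools 1 to 5 and 10.3, 9.34, 13.2 and 10.5 CPM in wildtype pools 1 to 4, with no overlap. Its log2 fold change was −0.48 ± 0.12 (edgeR adjusted p = 0.0412). The call was lost with nearly any pool left out: the adjusted p was 0.0683, 0.0896, 0.0544, 0.0624 and 0.0539 without knockout pools 1 to 5, and 0.0810, 0.0391, 0.117 and 0.0887 without wildtype pools 1 to 4. Its log2 fold change stayed between −0.55 and −0.37 in these fits. Hist1h4c, below 1 CPM, also did not overlap between genotypes (0.388 to 0.591 CPM against 0.594 to 0.995 CPM, edgeR adjusted p = 0.25). Hist2h4 had a log2 fold change of 0.42 ± 0.41 (edgeR adjusted p = 0.68) and Hist1h4k of −0.06 ± 0.35 (edgeR adjusted p = 0.96).

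The annotated transcripts differ in where they end, which may bear on what a library of polyA RNA and a quantification by transcript can catch. An annotated end does not show where an RNA ends or whether it has a tail, and neither was tested. In 11 genes the transcript ended within 100 bases after the stem-loop, and 5 of them were lower by edgeR, where 2.25% of all genes tested were, with a median log2 fold change of −0.73. In 7 it ended within 2 bases of the stop codon, and 4 were lower (median −0.63). Hist1h2aj, with no coding model, was lower. In 17 genes it ran over 100 bases past the stem-loop, and 2 were lower, Hist1h2ac and Hist1h4i (median −0.30). Hist2h2be and Hist1h2bc, whose transcripts hold no match in the window, were not called. All 5 lower genes of the first kind and all 4 of the second were H2A genes of Hist1. Of the 8 genes with these short ends outside that group, edgeR and DESeq2 called 0, with 1 lower at an unadjusted p under 0.05, a median log2 fold change of −0.47 and no DESeq2 adjusted p for 4. The Hist1 H2A genes with long ends were Hist1h2ac, which was lower, and Hist1h2ae, at −0.55 and not called. The difference between ends within or outside the copies was not tested.

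**Figure D4:**
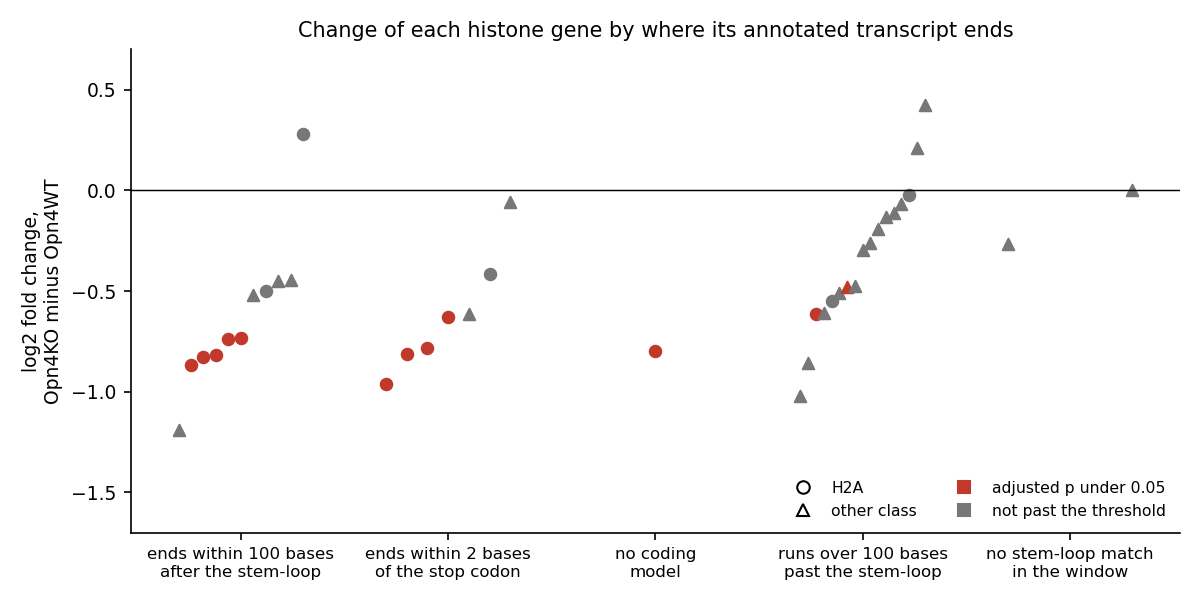
Log2 fold change (knockout minus wildtype, vertical axis) of each of the 38 genes by where its annotated transcript ends, with circles for H2A, triangles for other classes and red for an adjusted p under 0.05. Of 17 genes whose transcript runs over 100 bases past the stem-loop, 2 are red, against 5 of 11 and 4 of 7 of those with short ends, where edgeR called 2.25% of all genes tested lower. The red genes with short ends are all Hist1 H2A genes, which form a single row once copies are summed. Of the 8 other genes with short ends, 0 are red.

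Genes that act on histone mRNA were listed from background knowledge. They comprise activators of histone genes (Npat), the stem-loop binding protein (Slbp), factors of the 3′ end cut (Lsm10, Lsm11) and of mRNA decay (Eri1, Upf1), and the kinase of S phase entry with its cyclins. Of 24 found of 25 listed, 4 were lower and 0 higher by edgeR, where 2.25% of all genes tested were lower, and DESeq2 also called 4 lower, where 5% of all genes were, and 0 higher. At an unadjusted p under 0.05, edgeR gave the same 4 lower and 1 higher. The 4 were Cdk2 (19.4 ± 1.66 CPM in knockout against 27.7 ± 1.67 CPM in wildtype, log2 fold change −0.51 ± 0.07, adjusted p = 0.00164), its partners cyclin E1 (Ccne1, −0.46 ± 0.10, adjusted p = 0.0191) and cyclin E2 (Ccne2, −0.39 ± 0.07, adjusted p = 0.00809), and Slbp (53.9 ± 2.76 against 63.5 ± 1.88 CPM, −0.23 ± 0.05, adjusted p = 0.0178). The median of the 24 was 0.00, and Npat stood at −0.08 (edgeR adjusted p = 0.737). Without knockout pool 2 or without wildtype pool 4, 2 of the 24 were lower.

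Histone chaperones carry new histones to DNA. Of 26 listed, 5 were lower and 0 higher by edgeR, where 2.25% of all genes tested were lower, with a median of −0.10. The largest changes were in Chaf1b, a subunit of the chromatin assembly factor CAF-1 (8.09 ± 1.01 against 15.1 ± 2.25 CPM, log2 fold change −0.89 ± 0.12, edgeR adjusted p = 0.000814), Asf1b, which hands H3 and H4 to CAF-1 (10.2 ± 0.819 against 15.9 ± 1.99 CPM, −0.64 ± 0.09, edgeR adjusted p = 0.00186), and Mms22l, which acts with Tonsl at stalled forks (−0.55 ± 0.10, edgeR adjusted p = 0.0083). Chaf1a (−0.43) and Nasp (−0.35), which holds a reserve of H3 and H4, were the other two. Members of the HIRA complex, which deposits H3.3 outside S phase, were not called by edgeR. Hira stood at −0.12 (edgeR adjusted p = 0.172), Ubn1 at 0.06 (edgeR adjusted p = 0.517) and Cabin1 at 0.01 (edgeR adjusted p = 0.951). The pools of Hira did not overlap all the same, with 83.3 to 92.7 CPM in knockout and 93.8 to 96.0 CPM in wildtype (edgeR unadjusted p = 0.0157). DESeq2 called 9 lower, where 5% of all genes were, and 0 higher. At an unadjusted p under 0.05, edgeR gave 12 lower and 1 higher.

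Histone genes outside the replication-dependent clusters, most of them with mRNAs that carry poly-A tails, were listed for comparison. Of 11, 5 were lower and 0 higher by edgeR and by DESeq2, where 2.25% and 5% of all genes were lower, with a median of −0.19. At an unadjusted p under 0.05, edgeR gave 7 lower and 0 higher. H1fx, an H1 variant, had 82.4 ± 8.17 CPM in knockout and 127 ± 28.4 CPM in wildtype (log2 fold change −0.62 ± 0.12, edgeR adjusted p = 0.0103). Cenpa, the H3 variant of centromeres, had 32.2 ± 2.86 against 47.4 ± 2.02 CPM (−0.55 ± 0.07, edgeR adjusted p = 0.000561). H2afx, whose phosphorylated form marks DNA breaks, had 99.5 ± 10.8 against 137 ± 15.6 CPM (−0.45 ± 0.09, edgeR adjusted p = 0.00965). H2afz (−0.42) and H1f0 (−0.42) were the other two, and H3f3a and H3f3b, which encode H3.3, were not called (−0.04 and −0.12, edgeR adjusted p = 0.658 and 0.357).

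Genes of DNA synthesis that act in S phase were lower as a group. Of 24 listed, among them the sliding clamp Pcna, the helicase subunits Mcm2 to Mcm7 and the nucleotide-making Rrm1 and Rrm2, 24 were lower by edgeR and by DESeq2, where 2.25% and 5% of all genes were, and 0 were higher, with a median log2 fold change of −0.54. The largest changes were in Cdc6, which loads the helicase (6.06 ± 0.327 against 11.04 ± 0.837 CPM, −0.86 ± 0.09, edgeR adjusted p = 0.000195), Uhrf1, which reads hemimethylated DNA behind the fork (30.5 ± 4.85 against 54.8 ± 1.68 CPM, −0.84 ± 0.10, edgeR adjusted p = 0.000325), and Rrm2 (30.1 ± 3.92 against 53.7 ± 5.24 CPM, −0.83 ± 0.09, edgeR adjusted p = 0.000313). The list was chosen with earlier results of these data known, so its count is no independent evidence. Summed, the 24 stood at 979 to 1123 CPM in knockout and 1483 to 1547 CPM in wildtype.

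The summed CPM of the Hist1 H2A genes over that of the 24 S-phase genes was 0.308, 0.315, 0.376, 0.346 and 0.327 in knockout pools 1 to 5 and 0.412, 0.378, 0.414 and 0.354 in wildtype pools 1 to 4. This ratio overlapped between the genotypes only in that knockout pool 3 was above wildtype pool 4. Its means were 0.334 ± 0.0272 in knockout and 0.389 ± 0.0290 in wildtype (SD). For all 38 histone genes the ratio was 0.592 to 0.646 in knockout and 0.570 to 0.658 in wildtype. Knockout pools 1 and 2 had the lowest values of both sums. The quotient divides values of 1 library by each other and was not tested.

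**Figure D5:**
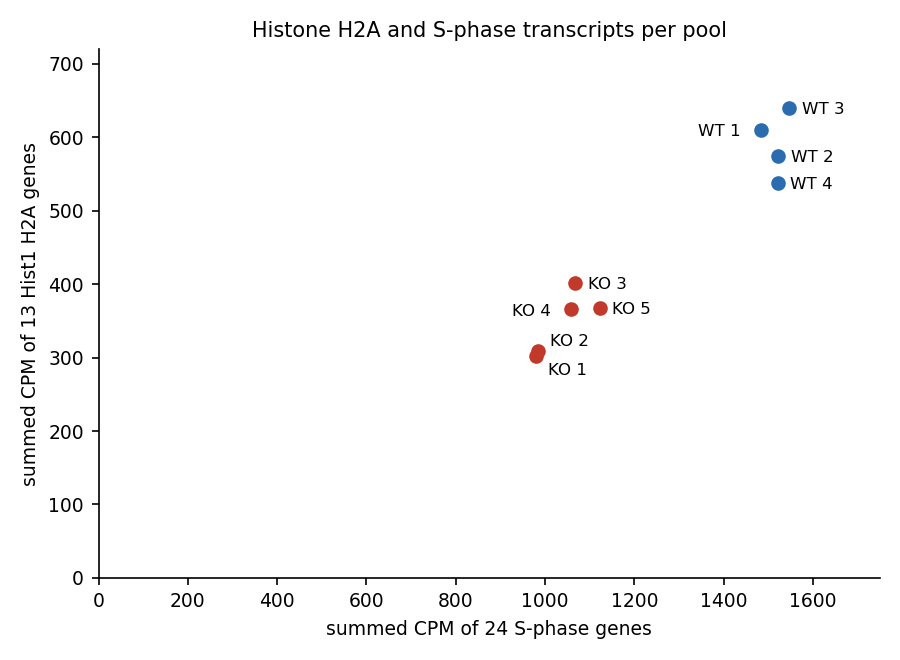
Summed CPM of the 13 Hist1 H2A genes (vertical axis) against the summed CPM of the 24 S-phase genes (horizontal axis) in each pool, both axes from 0, knockout in red and wildtype in blue. The genotypes form separate groups, and knockout pools 1 and 2 are the lowest on both axes.

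Some markers of cell types moved with the genotype as well and others did not, and their part in the histone levels was not tested. Among the progenitor genes reported here, Ccnd1, a cyclin of the G1 phase, and Fgf15, a growth factor, were lower by edgeR, with log2 fold changes of −0.51 ± 0.09 (adjusted p = 0.00465) and −0.53 ± 0.11 (adjusted p = 0.0143), while Rax, Sfrp2 and Hes5 did not pass the test. Among the photoreceptor genes reported here, Nrl, a rod transcription factor, was higher, with a log2 fold change of 0.29 ± 0.06 (adjusted p = 0.0153), while Crx, Rcvrn and Prdm1 did not pass. Of the Müller glia genes listed only Rlbp1 was called (higher, 0.38 ± 0.05), and of the amacrine and horizontal cell genes only Pax6 (lower, −0.16 ± 0.04). None of the genes listed for ganglion cells, microglia, endothelium or pigment epithelium was called. All 5 red blood cell genes were lower by edgeR, where 2.25% of all genes tested were. Their sums were 73.6 to 98.5 CPM in knockout and 109.9 to 337 CPM in wildtype, and none of them was at 0 in any pool. Of the 5 lens genes, Cryaa and Cryab were higher by edgeR, where 1.34% of all genes tested were, and Crygs and Lim2 had too few counts for the test. The 5 had sums of 2.87 to 10.3 CPM in knockout and 1.99 to 2.55 CPM in wildtype. Cryaa overlapped between genotypes, with 0.0938 CPM in knockout pool 4 and 0.0815 to 0.124 CPM in wildtype.

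Without knockout pools 1 and 2, which held most of the lens transcripts, 8 of the 38 histone genes were lower by edgeR, all 8 among the 12, where 1.65% of all genes of that fit were lower. The median log2 fold change was −0.32 over the 38 and −0.64 over the Hist1 H2A genes. Hist1h2ap kept its call (−0.63, edgeR adjusted p = 0.000541). Hist1h4i (−0.39, adjusted p = 0.149), Hist1h2ab (−0.65, adjusted p = 0.0945), Hist1h2ad (−0.67, adjusted p = 0.0574) and Hist1h2ac (−0.45, adjusted p = 0.0529) did not pass the test in this fit of 7 pools.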

How the data were processed

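The authors deposited whole-number counts per gene symbol, and no source used here names the program that wrote these counts. They also deposited TPM per transcript row, for which the submitters' processing notes name Trimmomatic 0.39, kallisto 0.46.1 and GRCm38. They are TPM that the authors rescaled between samples, a score with column sums on either side of 1 M rather than plain TPM, and 1673 rows without a symbol and 188 with digits alone were left out. A comparison by the authors with sleuth 0.30.8 was deposited as well, with p-values and q-values, an effect on the natural log scale (positive in wildtype, read from Opn4) and its standard error, a score on sleuth's scale, per the file headers.

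Counts were tested with edgeR 4.0.16 in R 4.3.3 (filterByExpr, TMM, quasi-likelihood F test, two-sided, Benjamini-Hochberg over all genes, threshold 0.05), on 5 knockout and 4 wildtype pools. TPM rows that reached 1 TPM in 4 or more pools entered limma 3.58.1 on log2(TPM + 0.5), which understates the change of low rows. DESeq2 1.42.0 was an alternative. Both tests were checked on simulated data. Totals were 65.5 to 86.1 M counts per pool, so 0.5 CPM is 32.8 to 43.1 counts, and intervals of technical error were not drawn. The submitters state 42.7 ± 3.9 M reads of 150 bases per sample. The count totals of all pools exceed this number, and no source used here says why, so a count may not be a separate read. The pools are separate samples in the labels, but shared litters are not given, so p-values measure the spread between these pools. None of the 16 pairs of pools within a genotype agreed within sampling noise.

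Transcripts and positions came from GENCODE M21 and copies from BLAST 2.17.0. The members and lists were chosen with earlier results of these data known. Named were, per class, the 3 members of highest mean CPM and the 3 called members of largest change, the 2 rows on either side of the CPM level, and the 3 called genes of largest change per list. Other genes were named after their values were seen, because a count, a shared sequence or a transcript end turned on them. Alternatives were other scalings, filters and tests, each pool left out, knockout pools 1 and 2 left out, the replicate number as a block, and copies summed. Some genes of the progenitor and photoreceptor lists are not reported here.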

Additional observations from a re-analysis of the deposited data

Results flagged for a closer look

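Within the groups of 4 or 5 pools, single pools lay far from the others in 3 of 46 groups of values examined, where chance gives about 1 in 20. Wildtype pool 3 had 55.7 CPM of Hist3h2ba, above the 46.5 to 47.7 CPM of the other 3 wildtype pools. Wildtype pool 1 had 16.2 CPM of Hist1h2bc, below the 20.9 to 21.6 CPM of the other 3 wildtype pools. Knockout pool 1 had 6.18 CPM of Hist1h4i, below the 7.78 to 8.39 CPM of the other 4 knockout pools.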

How the results depend on the processing

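The count of 12 histone genes lower in knockout was 9 to 12 with single pools left out, 13 with DESeq2, 10 without a low-count filter and 12 with column totals or DESeq2 size factors as scaling. With near-identical copies summed it was 2 of 17 rows, since 13 genes then form a single row. Higher calls numbered 0 in each of these fits. Of the class sums, the log2 ratio ranged from −0.71 to −0.62 for H2A, −0.42 to −0.29 for H4, −0.67 to −0.21 for H3, −0.32 to −0.03 for H1 and −0.15 to −0.05 for H2B with single pools left out, and −0.10 for H3 without Hist2h3c1. Among the named members not called, Hist1h1e (−0.32 to 0.10), Hist3h2a (−0.07 to 0.03), Hist2h2be (−0.06 to 0.04) and Hist1h4k (−0.31 to 0.14) changed sign over the alternatives.

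The TPM rows lower numbered 0 without a low-value filter, 0 without knockout pools 1 and 2, 0 to 1 with single pools left out and 2 with TPM summed per gene. The regulators lower numbered 2 without knockout pools 1 and 2 and 2 to 4 with single pools left out. The chaperones lower numbered 9 with DESeq2 and 5 to 6 with single pools left out, and the S-phase genes 22 to 24. Apart from the copies, the cause was not tested.

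Same-numbered pools did not deviate together (correlations of 0.002, −0.031, 0.006 and −0.030). These values cannot show whether such pools shared a litter, which the labels do not give. With the replicate number as a block, 13 histone genes were lower and 0 TPM rows. Of the block's pools without the block, 12 genes were lower. Genes near 0.5 CPM rest on 32.8 to 43.1 counts per pool, and shared reads limit which copy a count belongs to.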
